A study of Homo sapiens with 2 samples.

Results

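Most small Cajal body RNAs (scaRNAs) and small nucleolar RNAs (snoRNAs) are guide RNAs that direct the chemical modification of other RNAs. Of the 1489 PQBP1 peaks detected by spyCLIP-seq in HEY cells, 16 (1.07%) lay on RNAs of these classes. All 16 are called guide RNAs here for short, although SNORA73A, SNORA73B and SNORD3A act in the cleavage of the ribosomal RNA precursor. The 16 peaks were chosen by gene name, as every peak whose gene name begins with SCARNA, SNORA or SNORD, or by the transcript type snoRNA given in the peak list. All 16 met the name rule, and the type snoRNA, which 9 peaks of the list carried, added none, since the 7 SCARNA genes are typed there as ncRNA. The rule itself used no read value, although earlier results of these data were known when the members and lists were chosen. Each of the 16 peaks belonged to a different gene, and they comprised 7 SCARNA peaks (SCARNA2, SCARNA5, SCARNA7, SCARNA9L, SCARNA10, SCARNA12 and SCARNA13), 6 SNORA peaks (SNORA53, SNORA63, SNORA67, SNORA73A, SNORA73B and SNORA81) and 3 SNORD peaks (SNORD3A, SNORD17 and SNORD116-1).

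PQBP1, the polyglutamine binding protein 1, is a splicing factor of the nucleus. SpyCLIP-seq uses UV light to crosslink a tagged protein to the RNAs it touches while the cells are alive, and the RNA pieces that stay on the protein after RNase treatment and stringent washes are sequenced. HEY is a human ovarian cancer cell line. Here the HEY cells overexpressed PQBP1 carrying FLAG and Spy tags, received 400 mJ/cm2 of UV, and had their nuclei isolated before lysis, and these steps were shared by both libraries, 1 Input library without antibody and 1 IP library from an anti-FLAG pull-down. The peaks analysed were those of the IP library, and Input values were not used here. The cells thus held tagged PQBP1 above its native level, and the RNAs seen are those of isolated nuclei. With 1 library per group there was no replicate, no test between conditions was possible, and all comparisons below describe this IP library. A peak shows where reads gathered beyond the limit of the authors' peak caller, and the abundance of each RNA in the cells was not used here, so that the part of abundance in the read values was not tested.

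Guide RNAs fall into a pair of structural families. Box C/D RNAs carry the C box (TGATGA, written with T for U as in the reference file) and the D box (CTGA), bind the methyltransferase fibrillarin, and pair with their target just upstream of a D box to direct 2′-O-methylation. Box H/ACA RNAs fold into hairpins, end with an ACA close to the 3′ end, bind dyskerin, and direct the change of uridine to pseudouridine. SNORD genes encode C/D RNAs and SNORA genes encode H/ACA RNAs, both of which work mostly on ribosomal RNA in the nucleolus. SCARNA genes encode RNAs of either family, or composites of both, that reside in the Cajal body and modify the small nuclear RNAs of the spliceosome. Most human guide RNAs are cut out of the introns of a host gene, whereas a few are transcribed from genes of their own.

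The ends of 4 of the RNAs are shown here by sequence as examples of the families, because the boxes identify the family an RNA belongs to. The sequences are those of GENCODE release 44 (GRCh38) found by gene name, and 15 of the 16 RNAs had one, the exception being SCARNA9L. In SCARNA7, a C/D guide of the U1 small nuclear RNA, the capitals mark the C box near the 5′ end and the D box near the 3′ end. In SCARNA13, a tandem H/ACA RNA, and in SNORA67, an H/ACA guide of ribosomal RNA, they mark the ACA close to the 3′ end. The last bases of SNORA81, also an H/ACA guide of ribosomal RNA, are shown because no ACA lay among the last 6 of them in the reference sequence.
SCARNA7, bases 1 to 60: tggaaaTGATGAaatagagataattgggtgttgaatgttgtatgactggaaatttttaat
SCARNA7, bases 271 to 330: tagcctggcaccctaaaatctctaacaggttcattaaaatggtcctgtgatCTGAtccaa
SCARNA13, bases 216 to 275: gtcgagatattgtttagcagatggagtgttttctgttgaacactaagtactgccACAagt
SNORA67, bases 78 to 137: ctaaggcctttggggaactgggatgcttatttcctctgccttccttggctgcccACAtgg
SNORA81, bases 119 to 178: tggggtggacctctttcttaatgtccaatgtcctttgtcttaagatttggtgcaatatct

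Searched on the strand of the RNA, a C box together with a D box was found in 5 of the 6 SCARNA sequences with a peak, the exception being SCARNA13. Of all 24 SCARNA sequences of the reference, 41.7% held both. All 3 SNORD sequences with a peak held both, against 75.9% of 282 SNORD sequences, and 0 of the 6 SNORA sequences did, against 2.01% of 149. The SNORD3A sequence searched is longer than its RefSeq RNA, so the boxes counted for it may lie outside that RNA. An ACA within the last 6 bases was present in 5 of the 6 SNORA sequences with a peak and in 89.3% of all SNORA sequences. Of the 6 SCARNA sequences with a peak, 2 ended in this way, SCARNA12 and SCARNA13, against 70.8% of all 24 SCARNA sequences. SCARNA12 held C and D boxes as well. The CAB motif TGAG, known as a signal for the Cajal body, was found in all 6 SCARNA sequences with a peak, against 70.8% of SCARNA, 43% of SNORA and 86.9% of SNORD sequences, so that these 4 letters alone did not separate the classes. The CAB letters can overlap a C or D box, because TGA is common to all of them.

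Sequence upstream of the D boxes was also compared with the spliceosomal RNAs. In SCARNA7, 8 bases that end 1 base before an internal D box were complementary to bases 67 to 74 of U1, and the base opposite the fifth position before the box was base 70 of U1. Of 227 C/D sequences, 5.29% had a stretch at least as long against U1, sought in the 21 bases before each D box. In SCARNA5, a composite C/D and H/ACA RNA, 8 bases before a D box were complementary to bases 38 to 45 of U5, with U5 base 41 opposite the fifth position (4.41% of the 227 had one as long), and 11 bases before another D box were complementary to bases 61 to 71 of U4, with U4 base 65 opposite the fifth position, a length reached by 1 of the 227 sequences (0.441%), namely SCARNA5. SCARNA2, known as a C/D guide of the U2 small nuclear RNA, held 3 stretches of 8 or more bases complementary to U2, at U2 bases 22 to 30, 58 to 65 and 135 to 143, and of 24 SCARNA sequences 10 (41.7%) held at least 1 stretch of this length and 5 held at least 2. These matches describe letters only, and where the reads lay within each RNA was not resolved here. The windows are printed with the complementary stretch in capitals and, where present, the D box that follows it in capitals as well.
SCARNA7, bases 162 to 210, against U1: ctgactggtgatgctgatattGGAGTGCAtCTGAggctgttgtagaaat
SCARNA5, bases 1 to 43, against U5: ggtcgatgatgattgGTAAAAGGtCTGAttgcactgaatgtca
SCARNA5, bases 239 to 276, against U4: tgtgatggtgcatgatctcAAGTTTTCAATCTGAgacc
SCARNA2, bases 157 to 205, against U2: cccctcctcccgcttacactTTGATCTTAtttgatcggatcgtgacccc
SCARNA2, bases 340 to 387, against U2: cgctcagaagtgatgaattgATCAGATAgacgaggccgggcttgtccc
SCARNA2, bases 66 to 114, against U2: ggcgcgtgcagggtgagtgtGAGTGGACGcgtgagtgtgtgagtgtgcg

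PQBP1 peaks on SCARNA7 and SCARNA2 were among the tallest of the whole list. The read value of a peak is the mean number of reads per bin of 200 nt, not scaled to depth, and it is given with an exact Poisson 95% interval. These intervals cover counting error only. The use of molecular identifiers is not given in the sources used here, so reads cannot be taken as independent molecules. SCARNA7 had 455 reads per bin (414 to 499), the fourth highest value of the 1489 peaks, and SCARNA2 had 241.5 (220 to 264), the sixth highest. The median over all peaks was 11 reads per bin, with quartiles of 9 and 14 and a range of 6 to 1138, so SCARNA7 and SCARNA2 stood far above the bulk of the list. Together they carried 938 reads, which was 50.2% of the reads on guide RNAs.

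How far these 2 scaRNAs differed depended on the scale. The SCARNA7 peak was 1 bin (3:160232601-160232800) and the SCARNA2 peak was 2 bins (1:109642801-109643200). Positions are those of the peak list, 1-based, on a genome build other than GRCh38. Per bin, SCARNA7 was 1.88 times SCARNA2 (exact 95% interval of the ratio 1.65 to 2.15). Per peak, SCARNA7 had 455 reads and SCARNA2 had 483, a ratio of 0.942 (0.827 to 1.07) that did not separate them. With peak reads divided by the annotated RNA length, 330 nt for SCARNA7 and 420 nt for SCARNA2, the ratio was 1.2 (1.05 to 1.37). Reads outside the called bins were not counted, although the peaks of 200 and 400 nt are shorter than these RNAs. Both peaks had a p-value of 5.19e-12, the lowest listed and common to 62 peaks, so the p-value did not order them either.

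With the guide RNAs themselves left out, the noncoding peaks closest to SCARNA7 in read value, by the log2 ratio of reads per bin, were RPPH1, the RNA of RNase P, at 483.5 reads per bin, RN7SL1, the RNA of the signal recognition particle, at 358, and RMRP, the RNA of RNase MRP, at 673. Likewise without the guide RNAs, those closest to SCARNA2 were RN7SL2, a further signal recognition particle RNA, at 231.5, the nuclear long RNA MALAT1 at 210.75, and again RN7SL1. The log2 ratios ranged from -0.35 to 0.57. These RNAs were picked by nearness in read value alone, and the likeness rests on a single library. The part of RNA abundance in it was not tested. TERC, the telomerase RNA, which ends in an H/ACA domain and also resides in the Cajal body, had 48.5 reads per bin (39.3 to 59.2), and SCARNA2 was 4.98 times as high (4 to 6.26).

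The other 5 SCARNA peaks spanned a wide range. SCARNA10, a composite RNA known to guide U5 modification, had 127 reads per bin (106 to 151) in 1 bin at 12:6619401-6619600. SCARNA13, the tandem H/ACA RNA, had 42 (33.5 to 52) over 2 bins at 14:95999601-96000000. SCARNA12, a composite RNA that also guides U5 modification, had 22 (16 to 29.5) over 2 bins at 12:7076401-7076800. These 3 lay above the upper quartile of the list. SCARNA5 at 2:234184401-234184600 and SCARNA9L at X:20154201-20154400, an RNA that resembles SCARNA9, each had 10 reads per bin (4.8 to 18.4), below the list median. The composite RNAs did not share a level, since SCARNA10 was 5.77 times SCARNA12 (4.07 to 8.33) and 12.7 times SCARNA5 (6.68 to 27.1).

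Among the SNORA peaks, SNORA73B was the highest with 214 reads per bin (186 to 245) at 1:28835001-28835200. SNORA73A and SNORA73B are also known as U17 or E1, H/ACA RNAs that act in the cleavage of the ribosomal RNA precursor and not in its modification. SNORA73A had 36 reads per bin (25.2 to 49.8) at 1:28833801-28834000, and SNORA73B was 5.94 times as high (4.16 to 8.71). SNORA81 had 112 (92.2 to 135) at 3:186504401-186504600. SNORA53, an H/ACA RNA, had 18 (10.7 to 28.4) at 12:98993401-98993600, and SNORA67 had 17 (9.9 to 27.2) at 17:7481201-7481400. SNORA63, also known as E3, had 11 (5.49 to 19.7) at 3:186505001-186505200, and it is named outside the rule for named genes, after its value was seen. The SNORA peaks thus ran from the list median to the eighth highest value of the list.

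The unequal values of SNORA73A and SNORA73B came from near copies, so how the authors' alignment divided the reads between the genes is uncertain. The sequences have 206 and 204 bases and share 192 identical bases, 94.1% of the shorter. They are printed with capitals for the bases that an alignment did not pair with an identical base, and these bases lie scattered along both RNAs, so that a fragment of a common stretch can match either gene.
SNORA73A: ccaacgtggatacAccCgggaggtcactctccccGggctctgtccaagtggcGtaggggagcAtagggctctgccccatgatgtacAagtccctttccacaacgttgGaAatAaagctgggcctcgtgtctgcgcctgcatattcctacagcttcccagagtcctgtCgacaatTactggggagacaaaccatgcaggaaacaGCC
SNORA73B: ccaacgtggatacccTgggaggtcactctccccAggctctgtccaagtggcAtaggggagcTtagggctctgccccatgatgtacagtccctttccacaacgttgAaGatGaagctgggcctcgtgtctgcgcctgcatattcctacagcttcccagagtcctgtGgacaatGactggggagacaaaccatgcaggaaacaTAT

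Of the SNORD peaks, SNORD3A, the U3 RNA that acts in the cleavage of the ribosomal RNA precursor, had 199 reads per bin (172 to 229) at 17:19091201-19091400. SNORD17, a guide of ribosomal RNA, had 20 (14.3 to 27.2) over 2 bins at 20:17943201-17943600. SNORD116-1, a member of the imprinted cluster at the Prader-Willi locus, had 8 (3.45 to 15.8) at 15:25295801-25296000, the lowest value of the 16. SNORD3A was 9.95 times SNORD17 (7.06 to 14.3). SNORD3A and SNORD116-1 were classed as lying at a transcription start site, a class that 4 peaks of the list had, and the other 14 guide RNA peaks were classed as exon. Reads of both may be divided among copies: 1 of 13 SNORD3 genes and 1 of 30 SNORD116 genes had a peak, and SNORD116-1 is 96.8% identical to SNORD116-9. SNORA63 is 93% identical to SNORA63C, and, apart from SNORA73A and SNORA73B, no other RNA of the 14 compared had a copy this close.

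Most guide RNA peaks lay in the upper part of the list. Of the 16, 12 had a value above the upper quartile of all peaks and 4 a value at or below the median, namely SNORA63, SCARNA5, SCARNA9L and SNORD116-1. At 50 reads per bin or more there were 6 of the 16 (SCARNA7, SCARNA2, SNORA73B, SNORD3A, SCARNA10 and SNORA81), where 1.75% of all peaks reached this value. These 6 were 23.1% of the 26 peaks at this value and 42.9% of the 14 peaks at 100 reads per bin or more. By the p-value of the peak caller, 10 of the 16 were at 1e-05 or below, where 35.5% of all peaks were, and 8 had the smallest p-value. The median was 29 reads per bin over the 16 guide RNA peaks, 12 over the 135 other peaks not typed as mRNA, and 11 over the 827 mRNA exon peaks. The highest peak of any mRNA had 200 reads per bin, below SCARNA7, SCARNA2 and SNORA73B. The 16 peaks held 1868 reads, 4.68% of the 39952 reads in peaks (Wilson 95% interval 4.47 to 4.89).

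**Figure D1:**
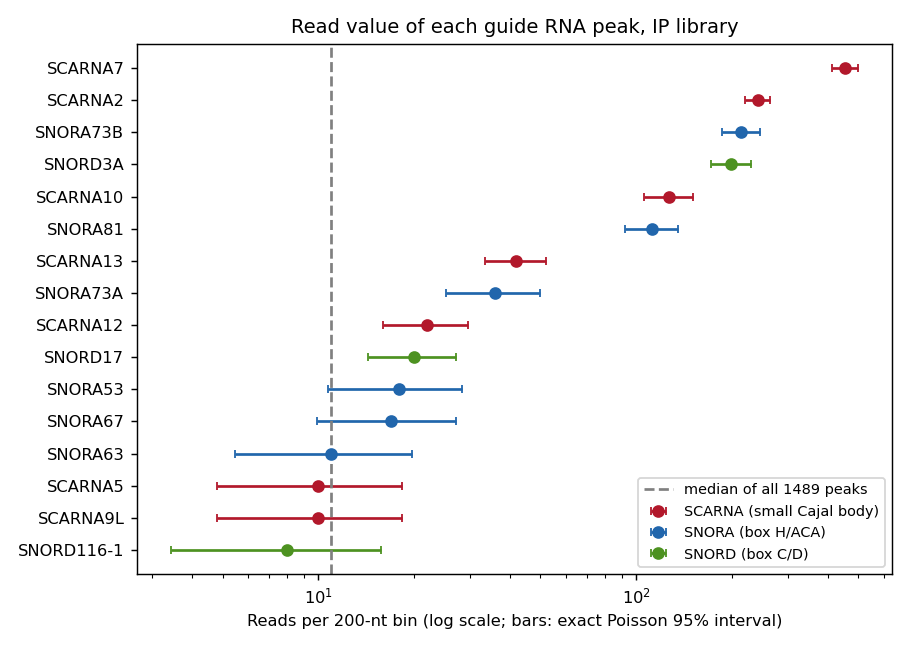
Reads per bin of 200 nt for each of the 16 guide RNA peaks of the IP library (points, log axis), with exact Poisson 95% intervals of counting error (bars), coloured by class; the dashed line is the median of all peaks, 11. SCARNA7 at 455 stands above SCARNA2 at 241.5, and the intervals of SNORA53, SNORA67, SNORA63, SCARNA5, SCARNA9L and SNORD116-1 reach the dashed line.

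**Figure D2:**
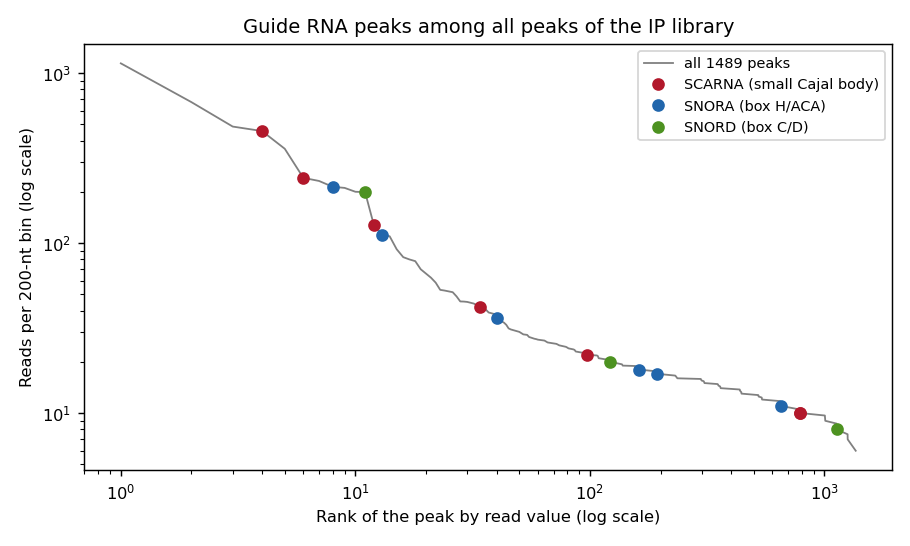
Reads per bin of 200 nt (log axis) against the rank of the peak (log axis, equal values sharing the lowest rank) for all 1489 peaks of the IP library (line), with the guide RNA peaks as points coloured by class. Of the guide RNAs, 6 lie among the first 20 ranks and the lowest, SNORD116-1, lies at rank 1128.

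In the order of read values, most neighbours could not be told apart by counting error. Of the 15 pairs of neighbours, 11 had a ratio whose exact interval reached 1. The interval lay above 1 in 4 pairs, SCARNA7 over SCARNA2 as given above, SNORD3A over SCARNA10 (1.57, 1.25 to 1.97), SNORA81 over SCARNA13 (2.67, 1.99 to 3.58) and SNORA73A over SCARNA12 (1.64, 1.02 to 2.6). SCARNA2, SNORA73B and SNORD3A, at 241.5, 214 and 199 reads per bin, followed each other in this order without a separated neighbour, although the ends differed, with SCARNA2 at 1.21 times SNORD3A (1.03 to 1.44). The p-values did not follow the read values throughout, since the p-value was 4.14e-05 for SCARNA12 with 22 reads per bin and 8.71e-08 for SNORA67 with 17.

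The classes overlapped in read value and differed in their share of the reads. SCARNA peaks ranged from 10 to 455 reads per bin with a median of 42, SNORA peaks from 11 to 214 with a median of 27, and SNORD peaks from 8 to 199 with a median of 20. The 7 SCARNA peaks held 1213 reads, 64.9% of the reads on guide RNAs and 3.04% of all reads in peaks (2.87 to 3.21). SCARNA7 and SCARNA2 alone held 938 of these reads, 50.2% of those on guide RNAs, so the SCARNA share rested mainly on them. The 6 SNORA peaks held 408 reads, 21.8% of those on guide RNAs, and the 3 SNORD peaks held 247, or 13.2%. Without SCARNA7 and SCARNA2, the SCARNA median was 22. Among peaks with a p-value of at most 0.001 the order of the medians changed, to 110 for SNORD, 84.5 for SCARNA and 36 for SNORA. This limit left out SNORD116-1, so the SNORD median was the midpoint of SNORD3A at 199 and SNORD17 at 20 reads per bin. With classes of 7, 6 and 3 peaks from 1 library, their medians were not tested against each other.

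Guide RNAs with a peak were few among those known, and they were mostly the long ones. In the RefSeq catalogue, without the genes typed there as pseudogenes (SNORD3P3, typed as snoRNA, was kept), 7 of 29 SCARNA genes had a peak (24.1%, Wilson 95% interval 12.2 to 42.1), against 6 of 182 SNORA genes (3.3%, 1.52 to 7) and 3 of 357 SNORD genes (0.84%, 0.286 to 2.44). The classes also differ in length. The median length was 330 nt for SCARNA RNAs with a peak and 138 nt for those without, 191 and 134 nt for SNORA, and 217 and 81 nt for SNORD. RNAs of 200 nt or more had a peak in 12 of 32 cases (37.5%, 22.9 to 54.7), those of 100 to 199 nt in 3 of 234 (1.28%, 0.437 to 3.7) and shorter ones in 1 of 302 (0.331%, 0.0585 to 1.85). Among the RNAs of 200 nt or more, the share was 7 of 10 for SCARNA (39.7 to 89.2%), 3 of 12 for SNORA (8.89 to 53.2%) and 2 of 10 for SNORD (5.67 to 51%), intervals that overlap. The part of RNA length in the difference between the classes was not tested.

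**Figure D3:**
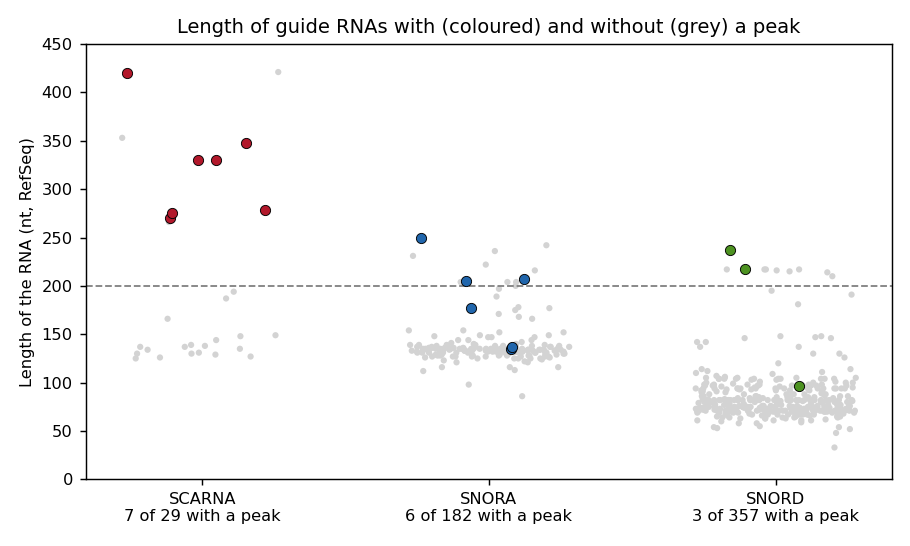
Length in nt of every SCARNA, SNORA and SNORD RNA of the RefSeq catalogue, with a peak (coloured points) and without one (grey points), spread sideways for legibility; the dashed line is the bin width of 200 nt. All 7 SCARNA RNAs with a peak lie between 270 and 420 nt, and 12 of the 16 coloured points lie above the line.

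**Figure D4:**
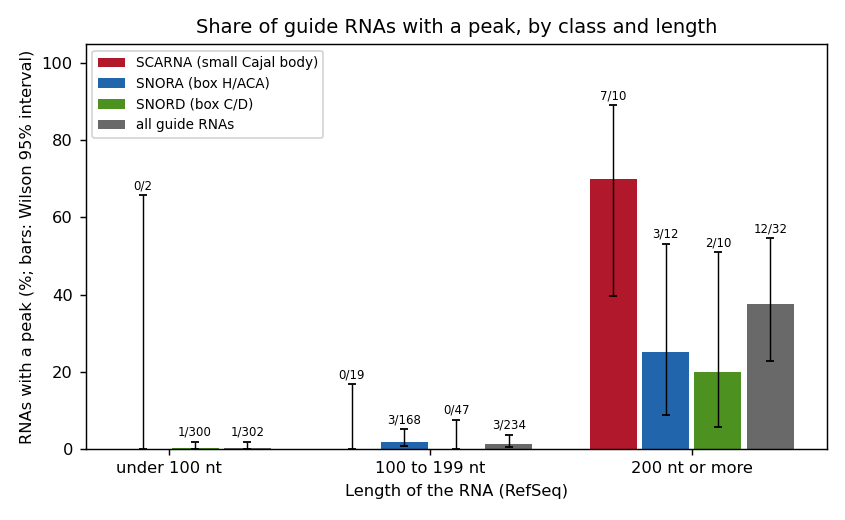
Percent of the RNAs of each class, and of all guide RNAs, that had a peak (bars, from 0), in 3 bands of RNA length, with Wilson 95% intervals (lines) and the counts above them. The share for all guide RNAs is 0.331% under 100 nt, 1.28% from 100 to 199 nt and 37.5% from 200 nt.

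The scaRNAs without a peak were almost all short. Of the 10 SCARNA RNAs of 250 nt or more, 7 had a peak and SCARNA17 (421 nt), SCARNA9 (353 nt) and SCARNA6 (266 nt) had none. Of the 19 shorter ones, of at most 194 nt, 0 had a peak. SCARNA9L, which resembles SCARNA9 and had a peak, lacked a reference sequence, so how reads were divided between this pair is uncertain. A missing peak says only that no bin passed the authors' limit, in a list whose lowest value was 6 reads per bin. An RNA of over 200 nt touches at least 2 bins of the 200 nt grid. A peak of 1 bin was listed for 8 of the 12 such RNAs with a peak, SCARNA7 and SCARNA10 among them. Peaks of 1 bin were also the most common in the whole list, 1264 of 1489. The reads of each peak were also divided by the full length of the RNA, which leaves out reads outside the called bins. On this scale SCARNA7 had 138 reads per 100 nt, SCARNA2 115, SNORA73B 104 and SNORD3A 91.7. These 4 remained the first in this order, followed by SNORA81 with 63.3 and SCARNA10 with 38.5, and SCARNA9L had the lowest value with 2.87.

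Peaks of a host gene were listed for 3 of the guide RNAs and differed in their distance from the guide RNA peak. In the annotation, 14 of the 16 RNAs lie within a named host gene, and SCARNA2 and SNORD3A do not. A host peak was found anywhere on the chromosome for 3 of the 14, and within 10 kb for 1. Of the 15 distinct hosts, 3 had a peak, and this count was not compared with the share of all genes that had one. The latter count, of RNAs with a host peak within 10 kb, is taken first. The RNA with a host peak within 10 kb was SNORA67. Its peak of 17 reads per bin lay 400 nt from an exon peak of EIF4A1, a translation initiation helicase, with 16 reads per bin (9.15 to 26) at 17:7480601-7480800. The ratio of the 2 values was 1.06 (0.505 to 2.25). SCARNA5, with 10 reads per bin, had an intron peak of its host ATG16L1, an autophagy gene, 12600 nt away with 30 reads per bin (20.2 to 42.8) at 2:234197201-234197400, and SCARNA5 was at 0.333 of that value (0.145 to 0.701). SCARNA10, with 127 reads per bin, had an exon peak of its host NCAPD2, a condensin subunit, 16000 nt away with 10 reads per bin (4.8 to 18.4) at 12:6635601-6635800, and SCARNA10 was 12.7 times as high (6.68 to 27.1). The guide RNA was thus level with, below and above its host in these 3 cases.

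For the other 11 RNAs with a named host, no peak of the host was listed. These hosts were KPNA4 for SCARNA7, RCC1 and SNHG3 for SNORA73A and SNORA73B, EIF4A2 for SNORA81 and SNORA63, SNHG10 for SCARNA13, PHB2 for SCARNA12, SNX5 and OVOL2 for SNORD17, SLC25A3 for SNORA53, EIF1AX for SCARNA9L and SNHG14 for SNORD116-1. The peak nearest to SCARNA7 belonged to SMC4, at 98400 nt, and the one nearest to SCARNA2 to PRPF38B, at 400400 nt, so both stood alone at their loci. Over the 16, 5 had another peak within 10 kb and 7 had none within 100 kb.

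Guide RNAs that share a host differed in read value. The peaks of SNORA73A and SNORA73B lay 1000 nt apart and differed by 5.94 times, as given above. The peaks of SNORA81 and SNORA63, both hosted by EIF4A2, lay 400 nt apart, and SNORA81 was 10.2 times as high (5.48 to 21). EIF4A2 holds 5 guide RNAs in the annotation, and the other 3, SNORA4, SNORA63B and SNORD2, had no peak. Likewise, SNORA48 and SNORD10 in EIF4A1 and SCARNA6 in ATG16L1 had no peak beside SNORA67 and SCARNA5, and of the 83 guide RNAs within SNHG14 only SNORD116-1 had one.

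The genes of the proteins that work with guide RNAs, the noncoding hosts and the target RNAs were also looked up among the 718 genes with a peak, and the counts were not compared with the share of all genes. Of 9 genes for core and assembly proteins of C/D particles, 2 had a peak, NOP56 with 11 reads per bin (5.49 to 19.7) in an exon and NOP58 with 10 (4.8 to 18.4) in an intron, which both encode scaffold proteins of the C/D particle. Of 6 genes for H/ACA core and assembly proteins, which include dyskerin, and of 10 genes for Cajal body and small RNA processing proteins, which include coilin, 0 had a peak. Among 34 noncoding genes listed by name as hosts of snoRNAs, SNHG17 had an intron peak with 16 reads per bin (9.15 to 26) and SNHG7 an exon peak with 15 (8.4 to 24.7). None of the 51 small nuclear RNA genes with names that begin with RNU or RNVU, which include targets of scaRNAs, had a peak. These RNAs have many near copies, and how reads that match several places were treated is not given in the sources used here.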

How the data were processed

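SpyCLIP-seq libraries of HEY cells (1 Input, 1 IP) were assigned to groups by title. Per the study's methods, the authors used Trimmomatic for trimming, discarded reads of ribosomal RNA, and used TopHat for alignment (TopHat2 2.0.13 in the submitters' processing notes), Piranha for peak calling and HOMER for annotation. How they treated multiply mapped reads, which bears on near-identical small RNAs, is not given in the sources used here. The deposited read value is a coverage signal, the mean reads per bin of 200 nt: value times bins was whole in all 1489 peaks (tolerance 0.05). The deposited p-value is that of the authors' peak caller, adjustment not given in the sources used here. How Input entered peak calling is not given either. Total depth is unknown, and 39952 reads lay in peaks. The methods name hg38, but 0 of the 16 peaks overlapped the RefSeq GRCh38 span of their gene, so positions were not converted and no sequence was read by position.

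All 16 genes matched RefSeq by gene identifier. Host genes, sequences and lengths came from GENCODE release 44 and RefSeq by name. The host of an RNA is a gene of the same strand that spans it there, and gaps between peaks were taken in list positions. For SNORD3A, whose GENCODE model is longer than the RefSeq RNA, no copies were compared. Poisson, Wilson and conditional binomial intervals (95%) were computed with SciPy 1.17.1 in Python 3.11.15 and tested on simulated data, and alignments were made with Biopython 1.88. Named genes were every SCARNA, the SNORA and SNORD with the highest reads per bin (up to 5 each), their hosts, the 3 noncoding peaks, guide RNAs left out, nearest in value to each of SCARNA2 and SCARNA7, TERC, and members of the protein and RNA lists with a peak. The members and lists were chosen with earlier results of these data known. The ACA window of 6 bases (5 had been planned), the search for pairing with small nuclear RNAs and the SCARNA median without SCARNA7 and SCARNA2 were added after the data were seen. With 1 library per group, no test was run.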

Additional observations from a re-analysis of the deposited data

How the results depend on the processing

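Of 42 alternative settings over 9 results, 31 left a value within its interval or, for a count, within 1.5 times. For the class medians the interval was the full range of values in the class, so leaving out peaks could not take them outside it. Merging close peaks of a gene, leaving out intergenic peaks and using the name prefix alone could not change the 16 peaks. The count of 31 was therefore partly fixed in advance. The intervals of the medians were wide, and the medians ranged over the settings from 22 to 42 reads per bin for all 16 peaks, 22 to 84.5 for SCARNA, 18 to 36 for SNORA and 14 to 110 for SNORD. SCARNA7 over SCARNA2, 1.88 per bin, was 0.942 per peak (0.827 to 1.07), below 1 with an interval that reached it. It was 1.2 with peak reads divided by RNA length. The number of guide RNA peaks, 16, was 9 by the type snoRNA alone, which leaves out the SCARNA genes, and 10 at a p-value of at most 1e-05. Their share of the reads in peaks, 4.68%, was 6.65% with reads per bin in place of reads, 6.05% among peaks with a p-value of at most 0.001, and 3.58% without SCARNA7. The 6 peaks at 50 reads per bin or more became 10 when a p-value of at most 1e-05 was used instead. The count of RNAs with a host peak within 10 kb, 1, was 3 within 100 kb, 3 at any distance, and 0 with intron peaks of hosts only. No paired analysis was possible because there was a single library for Input and for IP, and for the same reason no replicate could be left out. Values near 10 reads per bin carry intervals that reach from below the lowest value of the list to above its upper quartile, so their order is not resolved at this depth.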
